A study of Mus musculus with 12 samples.

Results

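The 10 genes described here are Cd5, Cd6, Pdcd1, Ctla4, Lag3, Btla, Cd160, Tigit, Havcr2 and Vsir, which encode CD5, CD6 and 8 inhibitory receptors of T cells. They were chosen by name from 49997 genes in the count tables, with earlier results of these data known. All 10 passed the filter on low counts in every comparison. RNA-seq counts were available for 12 mouse thymocyte libraries in 4 groups of 3: Satb1 KO double-positive (DP) cells, WT DP cells, Satb1 KO CD4 cells and WT CD4 cells. All 12 libraries are labelled as tamoxifen-treated, controls included, and the knockout is tamoxifen-induced. The sources used here give no allele, Cre driver, strain or mouse age. DP thymocytes display CD4 together with CD8 and undergo selection on self-peptides, and CD4 cells are a later stage without CD8. SATB1 is a chromatin-organising protein that is abundant in thymocytes.

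CD5 and CD6 are related scavenger-receptor glycoproteins with long cytoplasmic tails that are phosphorylated when the T cell receptor is engaged. In the thymus, surface CD5 is known to rise with the strength of the signal that a thymocyte receives through its receptor for self-peptide. The inhibitory receptors, among them PD-1 (Pdcd1), CTLA-4 and LAG-3, are mostly induced by activation and recruit phosphatases or compete with stimulatory receptors for shared ligands, so that their presence raises the signal needed for a response.

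The libraries held between 22790504 and 62422640 counts, and 3 counts corresponded to between 0.0481 and 0.132 CPM (counts scaled to a library total of 1000000). Levels are given as CPM with library sizes adjusted by the trimmed mean of M-values (TMM) over the 12 libraries. Satb1 itself averaged 2609 ± 231 CPM in KO DP and 3867 ± 29.1 CPM in WT DP cells (SD, n = 3 each), a log2 fold change of -0.56 ± 0.08 (SE; adjusted p = 0.000539, edgeR quasi-likelihood test). In CD4 cells Satb1 averaged 1499 ± 40.7 CPM in KO and 3273 ± 258 CPM in WT libraries (log2 fold change -1.12 ± 0.08, adjusted p = 7.89e-06, edgeR). Substantial Satb1 counts therefore remained in the KO libraries, and which exons they cover was not analysed here. The marker Cd8a, one CD8 chain, averaged 1676 ± 21.4 CPM in KO DP and 2534 ± 248 CPM in WT DP cells, against 161 ± 7.77 CPM in KO CD4 and 115 ± 46.6 CPM in WT CD4 cells. Zbtb7b, the CD4-lineage factor ThPOK, averaged 31.5 ± 10.8 CPM in KO CD4 and 386 ± 29.4 CPM in WT CD4 cells. The X-inactivation transcript Xist was at 0.845 and 0.273 CPM in WT DP replicates 1 and 2 and at 476 CPM in WT DP replicate 3, while the other 9 libraries lay between 189.7 and 601 CPM. The Y-linked gene Ddx3y lay between 40.4 and 127 CPM over all 12 libraries, so the libraries with Xist held Y-linked RNA too. WT DP replicates 1 and 2 therefore differed from the KO DP libraries in sex-linked RNA, and the part of this in the values of the 10 genes was not tested. Calls that were lost with replicate 3 as the only WT DP library are named below. KO DP replicate 2 had more Zbtb7b (7.13 CPM, against 0.254 and 1.00 CPM in the other KO DP libraries), and without it the calls of the 10 genes between KO and WT DP cells stayed the same. Whether replicate libraries were made from separate mice is not stated, so the p-values cover the spread of these libraries, which may be technical, and nothing wider.

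Among the 10 genes, 3 were lower in Satb1 KO cells at both stages (Cd5, Cd6 and Vsir) and 3 were higher at both stages (Pdcd1, Cd160 and Havcr2). A gene was called changed where its Benjamini-Hochberg adjusted p, over all genes tested in edgeR's quasi-likelihood test, was under 0.05. In DP cells 7 of the 10 were called, 4 higher and 3 lower in KO, where 30.8% of the 16776 genes tested were called (16.7% higher and 14.1% lower). In CD4 cells 9 of the 10 were called, 5 higher and 4 lower in KO, where 39.5% of the 17316 genes tested were called (20.9% higher and 18.6% lower). The median log2 fold change of the 10 was 0.11 in DP and 0.55 in CD4 cells, against 0.01 and 0.00 over all genes tested. The KO and WT libraries did not overlap for 7 of the 10 genes in DP cells, where 45.4% of all genes tested did not overlap, and for 9 of the 10 in CD4 cells, where 51.9% did not. The 10 genes were chosen with earlier results of these data known, so a share above that of all genes is no independent result. In bulk libraries such as these, fewer cells that express a gene and less RNA per cell cannot be told apart.

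**Figure D1:**
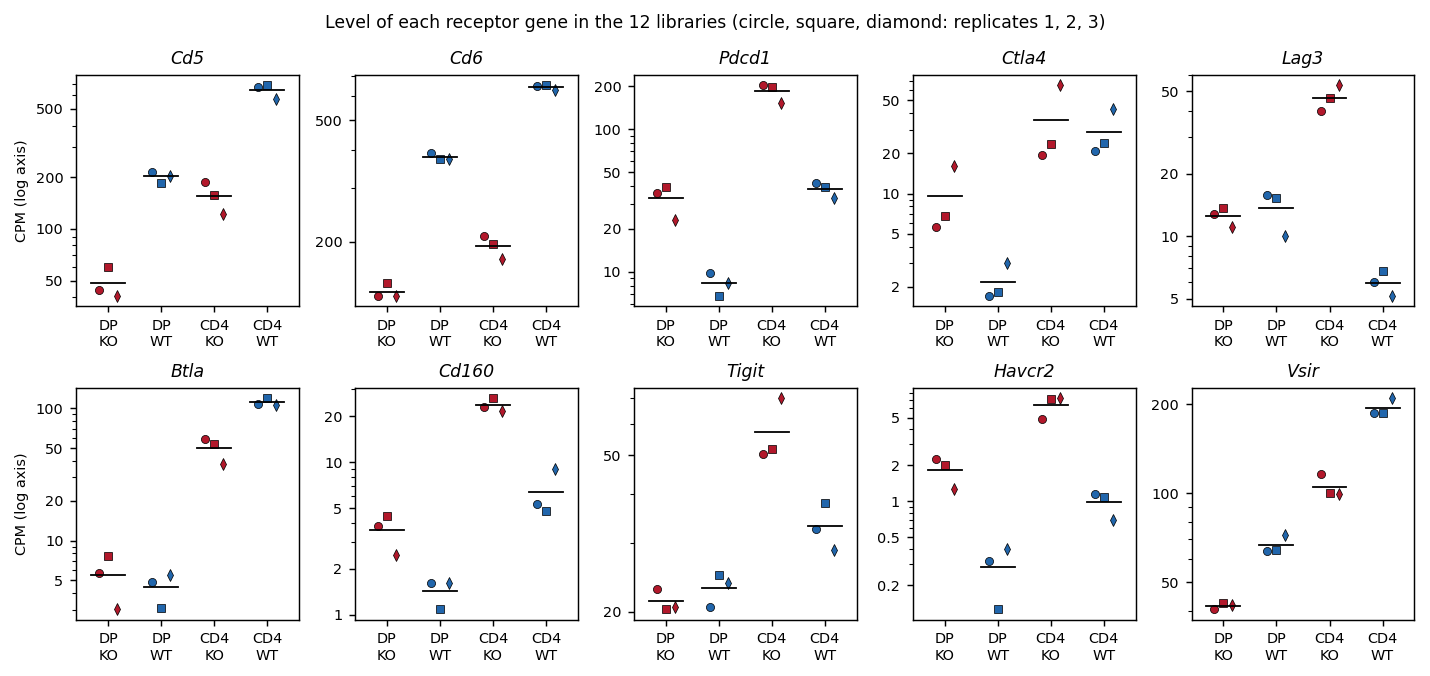
CPM of each of the 10 genes in every library (log axis), with Satb1 KO left of WT for DP and CD4 cells; points are libraries and horizontal bars are group means of 3. Cd5 in KO lies between 40.7 and 59.9 CPM in DP cells, below the 186 to 214 CPM of WT, and Lag3 separates KO from WT in CD4 cells but not in DP cells.

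Cd5 had the largest reduction of the 10 at each stage. In DP cells it was at 44.1, 59.9 and 40.7 CPM in KO libraries, against 214, 186 and 204 CPM in WT libraries. Among CD4 libraries it was at 188, 157 and 122 CPM in KO libraries, against 675, 689 and 571 CPM in WT libraries. Every KO library lay below every WT library of its stage, and the KO CD4 libraries lay between the KO DP and the upper WT DP values. The log2 fold change was -2.05 ± 0.14 in DP (adjusted p = 6.35e-06) and -2.05 ± 0.15 in CD4 cells (adjusted p = 9.78e-06), both by edgeR's quasi-likelihood test. The test of the difference between the stages gave 0.01 ± 0.22 (adjusted p = 0.979), so a difference in the change of Cd5 between stages was not detected, with an SE of 0.22.

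Cd6, whose product binds ALCAM on antigen-presenting and stromal cells, was also lower in KO cells at both stages. It was at 133, 146 and 133 CPM in KO DP libraries, against 391, 372 and 374 CPM in WT DP libraries. The CD4 values were 209, 196 and 176 CPM in KO, against 649.8, 652 and 629 CPM in WT libraries. No KO value reached a WT value of the same stage, and the SD was at most 16.6 CPM in any group. This gave a log2 fold change of -1.46 ± 0.07 in DP (adjusted p = 8.90e-07) and -1.73 ± 0.08 in CD4 cells (adjusted p = 1.16e-06, edgeR). The difference between stages was -0.26 ± 0.10 (adjusted p = 0.0612, edgeR), and with the batch number of the labels as a block it was -0.26 (adjusted p = 0.0305, edgeR). When 1 library was left out, that difference without the block ran from -0.35 to -0.23 and was called in 4 of 12 fits.

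The balance of the pair differed between KO and WT cells. The log2 ratio of Cd6 over Cd5 CPM was 1.59, 1.28 and 1.71 in KO DP libraries, against 0.86, 1.00 and 0.87 in WT DP libraries. In CD4 cells it was 0.16, 0.32 and 0.54 in KO, against -0.06, -0.08 and 0.14 in WT libraries. The KO libraries had the higher ratio at each stage without overlap, although the nearest CD4 values, 0.16 in KO and 0.14 in WT, were close. This ratio is given as a description, with no test.

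Cd5 and Cd6 are neighbours on mouse chromosome 19 (mm10), both on the minus strand, with Cd5 at chr19:10718107-10739026 and Cd6 at chr19:10789339-10830062, 50.3 kb apart. Of 15 other genes tested within 200 kb of the pair, a window chosen after values were known, 3 were higher and 1 was lower in KO DP cells, and 4 were higher and 1 was lower in KO CD4 cells, so 4 and 5 of the 15 were called where 30.8% and 39.5% of all genes were. The lower gene was the same in both: A430093F15Rik, annotated as a long non-coding RNA on the plus strand in the interval between Cd5 and Cd6. It was at 1.76, 2.35 and 1.27 CPM in KO DP libraries, against 6.58, 5.50 and 7.81 CPM in WT DP libraries (log2 fold change -1.86 ± 0.25, adjusted p = 0.000482, edgeR). In CD4 cells it was at 16.2, 14.1 and 11.3 CPM in KO, against 29.8, 35.5 and 31.6 CPM in WT libraries (log2 fold change -1.22 ± 0.14, adjusted p = 0.000110, edgeR). Its exons share no bases with those of Cd5 or Cd6 in the annotation used. The genes flanking this trio were not called in either comparison: Vps37c, a sorting-complex subunit beside Cd5, had log2 fold changes of -0.06 in DP and -0.27 in CD4 cells, and Slc15a3, a peptide transporter beside Cd6, had 0.31 in DP and 0.81 in CD4 cells.

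**Figure D2:**
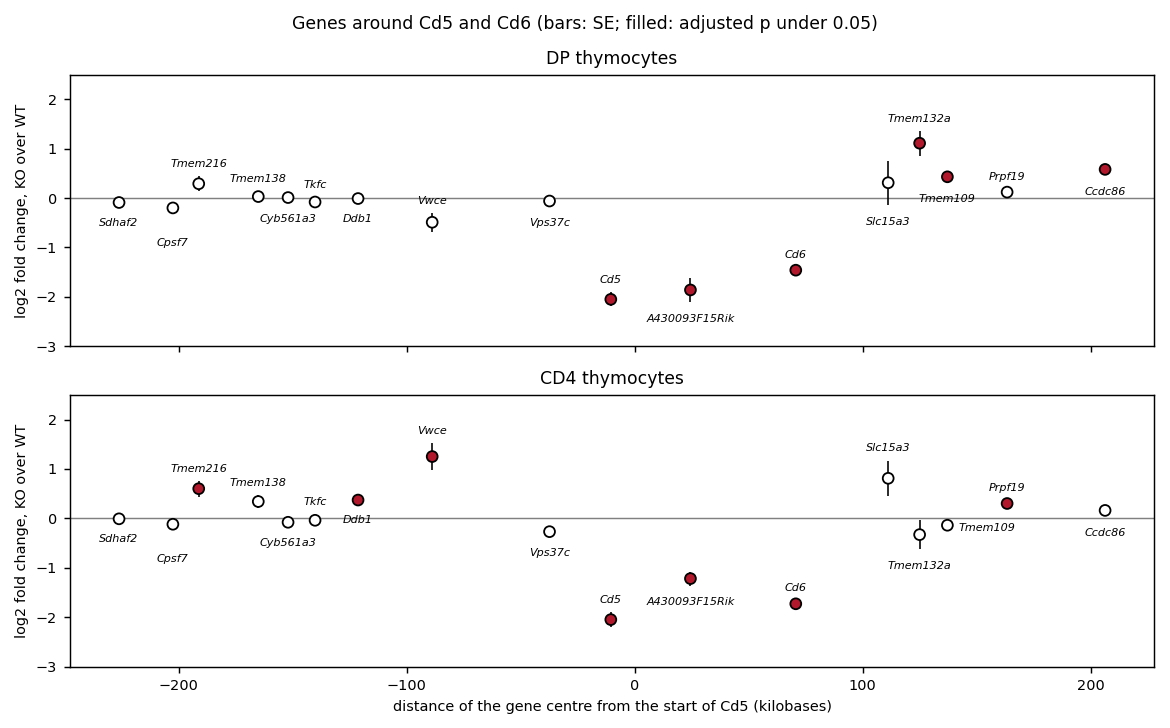
Log2 fold change of Satb1 KO over WT for the genes tested around Cd5 and Cd6, by distance of each gene's centre from the Cd5 start in kilobases, in DP (top) and CD4 cells; error bars are SE and filled points pass the threshold. Cd5, Cd6 and A430093F15Rik between them lie below 0 at both stages, and their immediate neighbours do not pass the threshold.

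The sequence before the Cd5 start is shown beside those of Vsir, which was also lower in KO cells, and of Pdcd1 and Havcr2, which were higher at both stages, to show the letters that lie upstream of genes that moved in opposite directions. The sequences are from RefSeq (build GRCm38.p6), each 5′ to 3′ on the strand of its gene and ending at the last base before the annotated start. They cover chr19:10739027-10739224 (minus strand, Cd5), chr10:60346601-60346850 (plus, Vsir), chr1:94052554-94052803 (minus, Pdcd1) and chr11:46454681-46454930 (plus, Havcr2). Capitals mark GGAA or its reverse complement TTCC, the core read by ETS and NFAT factors, and CANNTG, the E-box read by E proteins.
Cd5: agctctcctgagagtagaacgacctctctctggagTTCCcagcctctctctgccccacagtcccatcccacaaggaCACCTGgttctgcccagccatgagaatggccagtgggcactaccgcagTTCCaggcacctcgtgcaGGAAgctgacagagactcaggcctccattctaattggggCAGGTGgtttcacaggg
Vsir: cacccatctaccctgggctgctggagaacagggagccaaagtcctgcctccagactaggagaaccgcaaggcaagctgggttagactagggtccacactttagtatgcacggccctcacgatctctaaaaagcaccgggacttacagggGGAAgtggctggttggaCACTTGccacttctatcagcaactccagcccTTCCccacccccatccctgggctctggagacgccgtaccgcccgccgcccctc
Pdcd1: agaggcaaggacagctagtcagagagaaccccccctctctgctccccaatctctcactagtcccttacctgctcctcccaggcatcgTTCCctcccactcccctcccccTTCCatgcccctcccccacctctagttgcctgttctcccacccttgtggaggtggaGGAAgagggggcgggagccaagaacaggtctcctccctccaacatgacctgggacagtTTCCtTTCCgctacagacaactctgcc
Havcr2: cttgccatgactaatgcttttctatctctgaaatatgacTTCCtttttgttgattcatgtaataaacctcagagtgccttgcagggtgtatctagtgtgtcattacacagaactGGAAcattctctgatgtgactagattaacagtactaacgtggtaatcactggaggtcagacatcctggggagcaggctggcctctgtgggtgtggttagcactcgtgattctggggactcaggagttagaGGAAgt
The Cd5 window held 3 GGAA and 2 CANNTG matches, Vsir held 2 and 1, Pdcd1 held 5 and 0, and Havcr2 held 3 and 0, counting both strands. The windows shown are a selection, since 8 of the genes had a promoter entry, and Cd6 had none. Cd160, also higher in KO at both stages, is not shown. Its window at chr3:96829352-96829601 (minus strand) held 3 GGAA and 3 CANNTG matches, and the window of another annotated start held 4 and 0. CANNTG matches therefore did not separate the lower genes from the higher genes. GGAA occurred in 93.4% and CANNTG in 66.2% of the 32851 mouse promoter windows of 250 bases, and in 89.0% and 58.7% of them cut to the 198 bases of the Cd5 window. Havcr2 also held 1 match to the pattern TGANTCA, which reads tgattca there, and the pattern was found in 6.75% of windows. A match describes letters only, and no binding was measured.

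Vsir, the gene of VISTA, a receptor of naive T cells associated with quiescence, was also lower in KO at both stages. It was at 40.6, 42.5 and 42.0 CPM in KO DP libraries, against 63.6, 64.5 and 72.3 CPM in WT DP libraries. Among CD4 libraries it was at 116, 100.3 and 99.3 CPM in KO, against 186, 186 and 209 CPM in WT libraries. The groups were well separated at both stages, and the reduction was smaller than that of Cd5 or Cd6. The log2 fold change was -0.67 ± 0.08 in DP (adjusted p = 0.000229) and -0.88 ± 0.08 in CD4 cells (adjusted p = 4.15e-05, edgeR), and the difference between stages was -0.20 ± 0.11 (adjusted p = 0.211). Vsir lies on chromosome 10 (chr10:60346851-60430294) and shares 73 exon bases with Cdh23 on the opposite strand.

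Pdcd1 (chr1:94038305-94052553, minus strand) encodes PD-1, which recruits the phosphatase SHP2 on binding PD-L1 or PD-L2. It was at 35.7, 39.5 and 23.1 CPM in KO DP libraries, against 9.87, 6.80 and 8.30 CPM in WT DP libraries. The CD4 values were 204, 197 and 152 CPM in KO, against 41.8, 39.7 and 32.8 CPM in WT libraries. Every KO library lay above every WT library of its stage, and the KO DP libraries reached levels near those of WT CD4 cells. This gave a log2 fold change of 1.99 ± 0.21 in DP (adjusted p = 0.000115) and 2.27 ± 0.13 in CD4 cells (adjusted p = 2.76e-06, edgeR). The difference between stages was 0.29 ± 0.27 (adjusted p = 0.465). Within the 3 batch numbers the KO over WT log2 ratio ran from 1.48 to 2.54 in DP and from 2.21 to 2.31 in CD4 cells.

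Cd160 (chr3:96798763-96829351, minus strand), which encodes a receptor for HVEM (Tnfrsf14) on T and NK cells, was higher in KO cells at both stages. It was at 3.81, 4.44 and 2.47 CPM in KO DP libraries, against 1.62, 1.09 and 1.61 CPM in WT DP libraries. In CD4 cells it was at 23.1, 26.2 and 21.6 CPM in KO, against 5.30, 4.77 and 8.98 CPM in WT libraries. Neither pair of groups overlapped. The log2 fold change was 1.34 ± 0.28 in DP (adjusted p = 0.00601) and 1.92 ± 0.22 in CD4 cells (adjusted p = 0.000119, edgeR). With replicate 3 as the only WT DP library the DP value was 1.16 (adjusted p = 0.136) and was no longer called.

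Havcr2 (chr11:46454931-46481255, plus strand), the gene of TIM-3, a receptor for galectin-9 and CEACAM1, had the lowest mean CPM per kilobase of the 10 genes in DP cells of either genotype. It was at 2.25, 2.00 and 1.27 CPM in KO DP libraries, against 0.320, 0.126 and 0.402 CPM in WT DP libraries, the last of which rested on 14, 6 and 9 counts. Among CD4 libraries it was at 4.90, 7.14 and 7.25 CPM in KO, against 1.16, 1.08 and 0.704 CPM in WT libraries. KO libraries lay above WT libraries at both stages, with the fewest counts behind the WT DP values. This gave a log2 fold change of 2.80 ± 0.44 in DP (adjusted p = 0.00121) and 2.68 ± 0.25 in CD4 cells (adjusted p = 3.48e-05, edgeR). With replicate 3 as the only WT DP library, the DP value was 2.20 (adjusted p = 0.0521) and was not called.

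Lag3 (chr6:124904359-124912434, minus strand), a CD4 homologue that binds MHC class II, was higher in KO than in WT CD4 cells, with a difference between stages that was itself called. It was at 12.8, 13.7 and 11.1 CPM in KO DP libraries, against 15.8, 15.3 and 10 CPM in WT DP libraries. The CD4 values were 40.0, 46.3 and 53.4 CPM in KO, against 5.99, 6.77 and 5.16 CPM in WT libraries. The DP groups overlapped and the CD4 groups lay far apart. The log2 fold change was -0.13 ± 0.17 in DP (adjusted p = 0.626) and 2.95 ± 0.14 in CD4 cells (adjusted p = 1.23e-06), and the test of the difference gave 3.09 ± 0.24 (adjusted p = 1.17e-06, edgeR). Its nearest tested neighbours on chromosome 6 were Ptms, 1.24 kb away, and Cd4, 16.1 kb away. Cd4, the coreceptor gene, fell in KO at both stages by 0.51 in DP and 0.76 in CD4 cells on the log2 scale. Ptms, which encodes parathymosin, had a log2 fold change of -0.55 in DP (adjusted p = 0.00284) and 0.56 in CD4 cells (adjusted p = 0.00300, edgeR).

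Tigit (chr16:43626137-43665125, minus strand), whose product binds PVR (CD155) in competition with CD226, was higher in KO than in WT CD4 cells, and this KO effect also differed between stages. It was at 22.9, 20.3 and 20.6 CPM in KO DP libraries, against 20.6, 24.8 and 23.6 CPM in WT DP libraries. In CD4 cells it was at 50.3, 51.9 and 69.9 CPM in KO, against 32.5, 37.8 and 28.8 CPM in WT libraries. The DP groups overlapped and the CD4 groups did not. This gave a log2 fold change of -0.10 ± 0.10 in DP (adjusted p = 0.520) and 0.79 ± 0.14 in CD4 cells (adjusted p = 0.00171), with a difference between stages of 0.90 ± 0.19 (adjusted p = 0.00271, edgeR). The Tigit count is uncertain, since 8256 of its 24855 annotated exon bases are shared with Zbtb20 on the opposite strand and the sources used here do not say whether counting used strand.

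Btla (chr16:45223705-45252895, plus strand), another receptor for HVEM, was lower in KO than in WT CD4 cells. It was at 5.70, 7.64 and 3.03 CPM in KO DP libraries, against 4.82, 3.11 and 5.45 CPM in WT DP libraries. Among CD4 libraries it was at 58.2, 54.0 and 37.9 CPM in KO, against 107, 119 and 106 CPM in WT libraries. The CD4 groups were separate, and the DP groups overlapped. The log2 fold change was 0.32 ± 0.33 in DP (adjusted p = 0.506) and -1.14 ± 0.14 in CD4 cells (adjusted p = 0.000192, edgeR). The difference between stages was -1.48 ± 0.37 (adjusted p = 0.00968), which was -1.15 (adjusted p = 0.129) with replicate 3 as the only WT DP library.

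Ctla4 (chr1:60909025-60915832, plus strand), whose product competes with CD28 for CD80 and CD86, was higher in KO than in WT DP cells and was highest in replicate 3 of every group. It was at 5.59, 6.76 and 16.2 CPM in KO DP libraries, against 1.71, 1.83 and 2.99 CPM in WT DP libraries. The CD4 values were 19.3, 23.4 and 65.1 CPM in KO, against 20.7, 24.0 and 43.0 CPM in WT libraries. In DP cells the KO libraries lay above the WT libraries, while in CD4 cells the groups overlapped. This gave a log2 fold change of 2.17 ± 0.41 in DP (adjusted p = 0.00346) and 0.30 ± 0.44 in CD4 cells (adjusted p = 0.633, edgeR). With replicate 3 as the only WT DP library the DP value was 1.67 (adjusted p = 0.168), and without KO CD4 replicate 3 the CD4 value was -0.43 (adjusted p = 0.252). The difference between stages was -1.87 ± 0.72 (adjusted p = 0.0698), and with the batch number as a block it was -1.84 (adjusted p = 4.32e-05, edgeR). When 1 library was left out, that difference without the block ran from -2.65 to -1.29 and was called in 2 of 12 fits, without KO DP replicate 1 and without KO CD4 replicate 3, and the DP value ran from 1.57 to 2.45 and stayed called. Within the 3 batch numbers the KO over WT log2 ratio was 1.70, 1.89 and 2.44 in DP and -0.10, -0.04 and 0.60 in CD4 cells. The annotation places Ctla4 on 3 sequences, and its count is uncertain for that reason. Icos, the costimulatory receptor gene 44.9 kb away and likewise annotated on 3 sequences, had a log2 fold change of -0.06 in DP (not called) and -1.47 in CD4 cells (adjusted p = 0.000511, edgeR). Foxp3, the defining factor of regulatory T cells, which carry much CTLA-4, was at 25.8, 26.1 and 44.1 CPM in KO CD4 libraries, against 24.9, 30.2 and 30.1 CPM in WT CD4 libraries, and its part in the Ctla4 values was not tested.

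**Figure D3:**
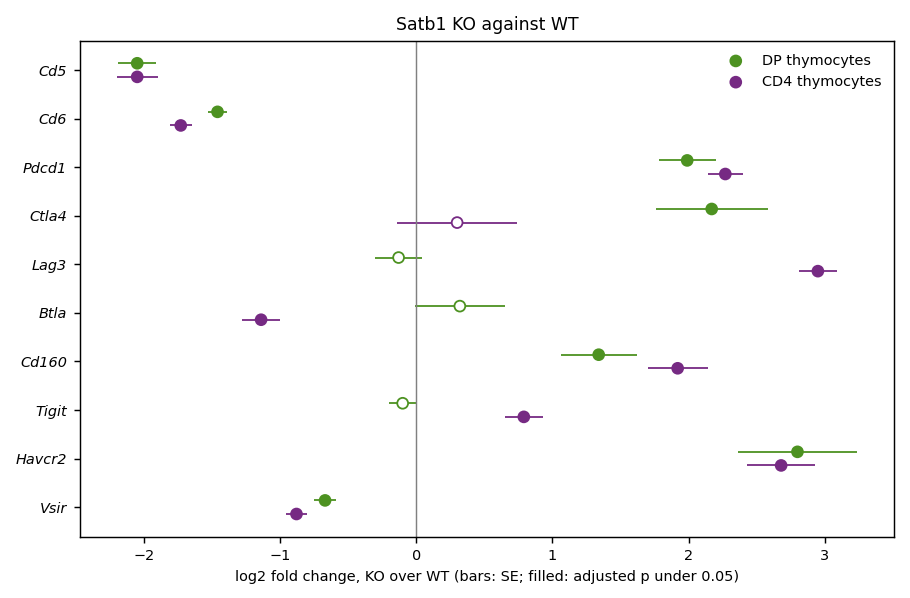
Log2 fold change of Satb1 KO over WT for the 10 genes in DP and CD4 cells, with SE; filled points pass the adjusted threshold of 0.05. Cd5 is at -2.05 in both, while Lag3 is at -0.13 in DP and 2.95 in CD4 cells.

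Of the 10 genes, 3 had a KO effect that differed between CD4 and DP cells in the test of the difference itself (Lag3 and Tigit higher, Btla lower), a share near the background, where 27.8% of the 18431 genes tested over the 12 libraries were called (14.4% higher and 13.4% lower). With the batch number as a block, 5 were called, Cd6 and Ctla4 being added, where 32.8% of all genes were called with that block.

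The KO libraries differed from WT in more than these receptors, and the marker lists moved at the same time. In DP cells all 7 DP markers were lower in KO (summed CPM 6303 to 6598 in KO and 11562 to 12673 in WT), and in CD4 cells 5 of the 7 were higher in KO (2235 to 2744 in KO and 1439 to 1855 in WT). In CD4 cells 5 of the 6 CD4 markers were lower in KO (1192 to 1334 in KO and 2501 to 2738 in WT). The summed level of the 6 regulatory T cell markers was 492 to 607 CPM in KO DP and 109 to 138 CPM in WT DP libraries, and 659 to 739.6 CPM in KO CD4 and 320.5 to 382 CPM in WT CD4 libraries. These sums were carried by Il2ra, an interleukin-2 receptor chain (407 ± 49.2 CPM in KO DP and 12.5 ± 5.58 CPM in WT DP, 239 ± 53.8 CPM in KO CD4 and 35.2 ± 5.62 CPM in WT CD4 cells), and in CD4 cells by Ikzf2. By the test 2 of the 6 were higher and 1 lower in KO DP cells, and 2 higher (Il2ra, Ikzf2) and 3 lower (Ikzf4, Tnfrsf18, Tnfrsf4) in KO CD4 cells, with a median log2 fold change of -0.42 in CD4 cells. Of those markers Foxp3 was at most 1.32 CPM in KO DP and 0.708 CPM in WT DP libraries, and its KO over WT log2 fold changes of 1.07 in DP and 0.17 in CD4 cells were not called. The 4 double-negative markers, of the stage before DP, summed to 490.3 to 636 CPM in KO DP and 27.4 to 40.4 CPM in WT DP libraries, and to 708 to 856 CPM in KO CD4 and 548 to 585 CPM in WT CD4 libraries. In KO DP cells Il7r, Il2ra and Kit were higher, with log2 fold changes of 4.16, 5.07 and 1.54, and Cd44 fell by 1.10; Il2ra stands in this list and in the regulatory T cell list. The gamma-delta T markers found in the tables summed to 7.28 to 10.5 CPM in KO DP and 1.38 to 2.72 CPM in WT DP libraries, and to 10.4 to 17.8 CPM in KO CD4 and 11.1 to 21.8 CPM in WT CD4 libraries, with Trdc and Trdv4 listed at 0 in all 12. The 5 NKT and innate-like markers summed to 289 to 413 CPM in KO DP and 230.3 to 257 CPM in WT DP libraries, and to 358 to 413 CPM in KO CD4 and 262 to 289.8 CPM in WT CD4 libraries. The higher KO sums were carried by Il17rb (KO 220.3 and WT 39.3 CPM in DP, KO 176 and WT 105 CPM in CD4 cells). In CD4 cells Slamf6 added to this (KO 155 and WT 63.5 CPM). By the test 1 of the 5 was higher and 2 lower in KO DP cells, and 2 were higher and 3 lower in KO CD4 cells. Zbtb16 averaged 1.66 CPM in KO CD4 and 24.3 CPM in WT CD4 cells, and Klrb1c 1.14 and 13.4 CPM. The 6 NK and innate lymphoid markers summed to 8.43 to 17 CPM in KO DP and 2.95 to 4.59 CPM in WT DP libraries, and to 23.3 to 29.2 CPM in KO CD4 and 38 to 74.2 CPM in WT CD4 libraries. Markers of B cells and of myeloid cells summed to at most 30.1 and 129 CPM in KO libraries and at most 21.2 and 149.9 CPM in WT libraries. The 5 erythroid markers summed to 67.1 to 329 CPM in KO DP and 25.8 to 198 CPM in WT DP libraries. In CD4 cells they summed to 48.5 to 219 CPM in KO and 22.9 to 137 CPM in WT libraries. Of the 4 erythroid markers tested, 0 were called between KO and WT at either stage. The part of all these cell types in the values of the 10 genes was not tested.

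Most of these genes were higher in CD4 than in DP cells, by the test without the batch number as a block. DP and CD4 counts were deposited separately, so any difference in their processing cannot be told apart from stage. All 10 were called higher in CD4 than in DP cells within the KO genotype, where 21.7% of 16910 genes tested were called (13.9% higher and 7.82% lower). Within WT, 9 were called higher and 1 lower, where 55.0% of 17369 genes were called (28.0% higher and 27.1% lower). The median log2 fold change of the 10 was 1.86 in KO and 1.77 in WT, against 0.00 over all genes in each. The CD4 and DP libraries did not overlap for all 10 genes in either genotype, where 40.1% of genes in KO and 62.7% in WT did not. With the batch number as a block all 10 were again called higher in KO, where 38.0% of all genes were then called. Markers of other cell types moved with this comparison: 8 of 10 myeloid and dendritic markers were higher in CD4 than in DP cells in KO and 9 of 10 in WT, and 5 of 6 regulatory T cell markers in KO and 6 of 6 in WT. Foxp3 had log2 fold changes of 4.84 in KO and 5.64 in WT cells. The part of these cells in the values of the 10 genes was not tested.

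Btla had the largest WT difference, with a log2 fold change of 3.21 ± 0.30 in KO (adjusted p = 0.000245) and 4.66 ± 0.17 in WT cells (adjusted p = 1.70e-08, edgeR). Pdcd1 was higher in CD4 cells by 2.51 ± 0.20 in KO and 2.19 ± 0.15 in WT cells on the log2 scale (adjusted p = 0.000107 and 8.94e-07, edgeR). Cd5 was higher by 1.71 ± 0.18 in KO and 1.67 ± 0.09 in WT (adjusted p = 0.000422 and 1.72e-07), and Cd6 by 0.52 ± 0.08 and 0.76 ± 0.06 (adjusted p = 0.00220 and 2.66e-06). Vsir was higher by 1.36 ± 0.08 in KO and 1.53 ± 0.08 in WT cells (adjusted p = 3.28e-05 and 1.15e-07). Lag3 was the one gene with opposite signs: it was 1.91 ± 0.13 higher in KO (adjusted p = 5.42e-05) and fell by 1.20 in WT (SE 0.19, adjusted p = 0.000365, edgeR).

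The other 4 genes rose in both genotypes. Havcr2 had log2 fold changes of 1.81 ± 0.25 in KO and 1.87 ± 0.48 in WT, and Cd160 had 2.74 ± 0.20 in KO and 2.14 ± 0.29 in WT cells. Tigit had 1.45 ± 0.14 in KO and 0.52 ± 0.12 in WT. Ctla4 had 1.95 ± 0.54 in KO (adjusted p = 0.0366) and 3.79 ± 0.31 in WT (adjusted p = 3.49e-06, edgeR), the KO value being 1.66 without KO DP replicate 1 (adjusted p = 0.117), 1.75 without KO DP replicate 2 (adjusted p = 0.109) and 1.18 without KO CD4 replicate 3 (adjusted p = 0.0658), none of them called. With replicate 3 as the only WT DP library, Tigit (0.49, adjusted p = 0.0584) and Havcr2 (1.30, adjusted p = 0.128) were not called in WT.

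**Figure D4:**
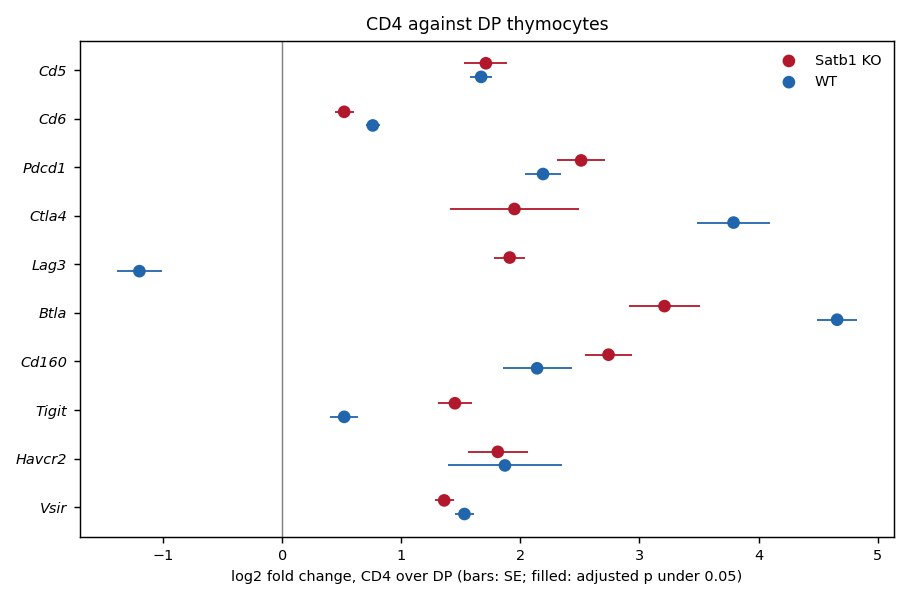
Log2 fold change of CD4 over DP for the 10 genes within Satb1 KO and within WT cells, with SE. Lag3 is at 1.91 in KO and -1.20 in WT, while the other 9 genes are above 0 in both genotypes.

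Per kilobase of annotated exon, the order of the genes changed with genotype. The order depends on the annotated length, which is uncertain for Tigit and Ctla4. The Tigit length was 24855 bases, of which 8256 are shared with Zbtb20, and the Ctla4 length was 5801 bases for a gene placed on 3 sequences. The places of Tigit and Ctla4 in these orders are therefore uncertain. In KO DP cells the order of mean CPM per kb was Cd6 (45.1), Cd5 (22.4), Pdcd1 (17), Vsir (5.59), Lag3 (4.57), Ctla4 (1.64), Btla (1.41), Cd160 (1.35), Tigit (0.856) and Havcr2 (0.675). In WT DP cells it was Cd6 (125), Cd5 (93.5), Vsir (8.95), Lag3 (5.0), Pdcd1 (4.31), Btla (1.15), Tigit (0.926), Cd160 (0.545), Ctla4 (0.375) and Havcr2 (0.104). In KO CD4 cells it was Pdcd1 (95.5), Cd5 (72.0), Cd6 (63.8), Lag3 (17), Vsir (14.1), Btla (12.9), Cd160 (8.94), Ctla4 (6.19), Havcr2 (2.36) and Tigit (2.31). In WT CD4 cells it was Cd5 (299), Cd6 (212), Btla (28.6), Vsir (25.9), Pdcd1 (19.7), Ctla4 (5.04), Cd160 (2.40), Lag3 (2.18), Tigit (1.33) and Havcr2 (0.360). Pdcd1 led the order in KO CD4 cells and stood below Cd5, Cd6, Btla and Vsir in WT CD4 cells, although its KO CD4 values overlapped those of Cd5, its neighbour in that order. Neighbours in KO CD4 cells that also overlapped were Cd5 and Cd6, Lag3 and Vsir, Vsir and Btla, Btla and Cd160, Cd160 and Ctla4, and Havcr2 and Tigit. In WT CD4 cells Btla and Vsir overlapped, and Cd160 and Lag3. The KO DP overlaps were Cd5 and Pdcd1, Ctla4 and Btla, Btla and Cd160, and Tigit and Havcr2. Those in WT DP cells were Lag3 and Pdcd1, Btla and Tigit, and Cd160 and Ctla4. The order within such pairs is not resolved.

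**Figure D5:**
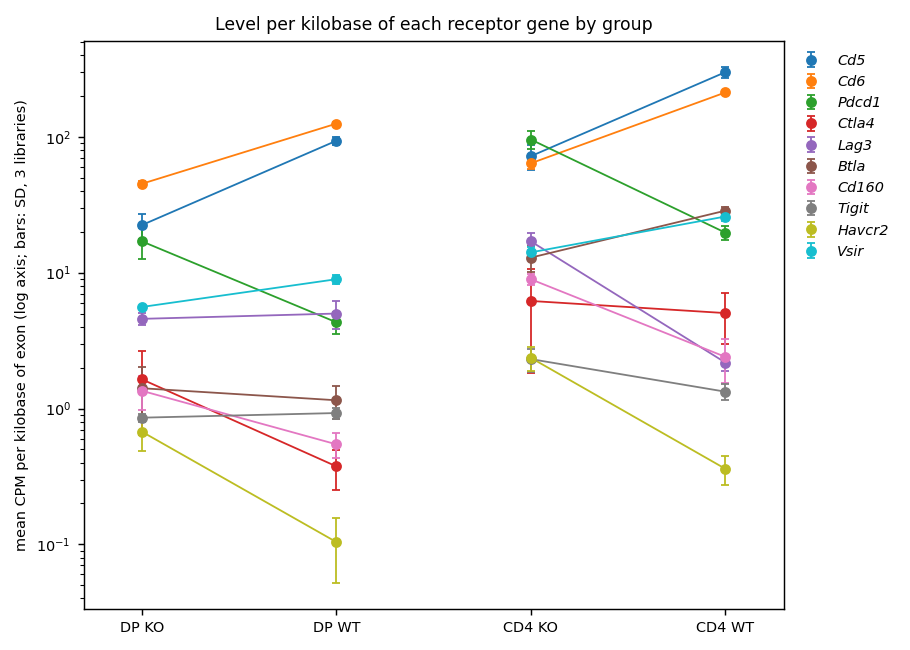
Mean CPM per kilobase of annotated exon length for the 10 genes in each group of 3 libraries (log axis), KO left of WT; error bars are SD and lines join KO and WT of a stage. Pdcd1 is at 95.5 in KO CD4 and 19.7 in WT CD4 cells, and Cd5 at 72.0 and 299.

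Ligands, partners and regulators of the 10 were counted from lists chosen with earlier results of these data known, and each count of list genes stands against 30.8% of all genes tested being called in DP cells and 39.5% in CD4 cells. Of the 16 ligands, 12 were tested in DP cells, of which 4 were higher and 3 lower in KO, and 14 in CD4 cells, of which 2 were higher and 5 lower. The median log2 fold change of the tested ligands was 0.20 in DP and -0.05 in CD4 cells. Pvr, the TIGIT ligand, was at 55.4 ± 2.38 CPM in KO DP and 120.0 ± 2.33 CPM in WT DP cells (log2 fold change -1.10 ± 0.07, adjusted p = 3.37e-06), and at 36.6 ± 0.435 CPM in KO CD4 and 96.0 ± 4.19 CPM in WT CD4 cells (-1.39 ± 0.06, adjusted p = 1.16e-06, edgeR). Ceacam1, a ligand named for TIM-3, fell by 2.01 in DP and 1.42 in CD4 cells on the log2 scale. Selplg, which encodes PSGL-1, a VISTA ligand, was higher in KO DP cells by 0.85 (adjusted p = 0.000526, edgeR) and had 0.15 in CD4 cells (not called). Lgals9, which encodes galectin-9, was higher in KO CD4 cells by 0.69 (adjusted p = 5.80e-05, edgeR), and Alcam, which encodes a CD6 ligand, by 1.78 (adjusted p = 0.000253, edgeR). Cdcp1, another gene of the ligand list, named after its values were seen, went the other way in CD4 cells. It averaged 0.508 CPM in KO CD4 and 1.98 CPM in WT CD4 cells (log2 fold change -1.94 ± 0.39, adjusted p = 0.00369, edgeR). Tnfrsf14, the HVEM ligand of BTLA and CD160, was named after its values were seen. It averaged 52.3 ± 11.8 CPM in KO DP and 34.7 ± 2.61 CPM in WT DP cells, and 87.2 ± 11.2 CPM in KO CD4 and 155 ± 18.6 CPM in WT CD4 cells, higher in DP and lower in CD4 by the test (log2 fold change 0.61, adjusted p = 0.0161, and -0.83, adjusted p = 0.000325, edgeR).

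Of the 22 intracellular partners, 7 were higher and 5 lower in KO DP cells, and 4 higher and 9 lower in KO CD4 cells. Inpp5d, the phosphatase SHIP-1, was higher by 0.68 in DP cells (adjusted p = 8.29e-05), and Fyn, a Src-family kinase of T cell receptor signalling, fell by 0.95 in CD4 cells (adjusted p = 6.35e-06, edgeR). Sh2d1a, the adaptor SAP, was higher by 1.04 (adjusted p = 2.89e-05, edgeR) in CD4 cells. Ptpn22, a phosphatase of T cell receptor signalling, was higher by 0.41 in DP (adjusted p = 0.00114) and 0.68 in CD4 cells (adjusted p = 0.000363, edgeR). Ubash3a, a suppressor of T cell receptor signalling, fell by 0.26 in DP (adjusted p = 0.0218) and 0.69 in CD4 cells (adjusted p = 1.80e-05, edgeR). Sh2d2a, an adaptor of Lck, fell by 0.58 in DP and 0.77 in CD4 cells. Of the 11 activating partners and competitors, 2 were higher and 5 lower in DP cells, and 1 was higher and 8 lower in CD4 cells. Cd226, the activating receptor with which TIGIT competes for PVR, was higher in KO at both stages. It averaged 86.2 ± 8.99 CPM in KO DP and 9.64 ± 1.37 CPM in WT DP cells (log2 fold change 3.18, adjusted p = 3.26e-07), and 106 ± 6.39 CPM in KO CD4 and 83.5 ± 3.79 CPM in WT CD4 cells (0.35, adjusted p = 0.00301, edgeR). Cd96, another PVR-binding receptor, fell by 1.01 in DP (adjusted p = 0.00105) and 1.20 in CD4 cells (adjusted p = 3.24e-05, edgeR). Cd28, the activating receptor that shares ligands with CTLA-4, fell by 1.01 in DP (adjusted p = 6.34e-05) and 0.77 in CD4 cells (adjusted p = 0.000132, edgeR). Cd2, an adhesion receptor, fell by 2.07 in DP and 1.42 in CD4 cells. The annotation places Cd28 and Cd2 on several sequences each, so their counts are uncertain.

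Of 19 transcription factors known to act on inhibitory receptor genes, 8 were higher and 2 lower in KO DP cells, and 7 higher and 4 lower in KO CD4 cells. Maf was at 342, 365 and 267 CPM in KO DP libraries, against 3.72, 2.52 and 3.71 CPM in WT DP libraries, and at 149, 166 and 186 CPM in KO CD4, against 17.3, 16.6 and 12.5 CPM in WT CD4 libraries (log2 fold change 6.65 and 3.43). Prdm1, which encodes Blimp-1, was higher by 3.02 in DP and 1.53 in CD4 cells, and Bcl6, its antagonist, fell by 1.83 in DP cells (adjusted p = 1.44e-06, edgeR) and had -0.05 in CD4 cells (not called). Nfatc2, an NFAT factor, fell by 1.31 in CD4 cells (adjusted p = 3.67e-06, edgeR), and Tcf12, which encodes the E protein HEB, was higher by 1.04 (adjusted p = 5.18e-05, edgeR).

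Over the 12 libraries, Cd5 had its highest Pearson correlation with Hdac5 (0.995), Sh2d2a (0.992) and Baiap2 (0.990). The search covered 9783 genes with a mean log2 CPM of at least 2. It left out symbols of predicted genes and clones, A430093F15Rik among them. Cd6 was closest to Rnf167 (0.994), Bicdl1 (0.992) and Gramd3 (0.987), and Pdcd1 to Kit (0.984), Rexo2 (0.983) and Spock2 (0.981). Among the 10 genes, Cd5 correlated with Cd6 at 0.949 and with Vsir at 0.912, and Pdcd1 with Cd160 at 0.970 and with Havcr2 at 0.950. These values describe profiles over 4 groups, whose means they share, and carry no test.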

How the data were processed

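Counts per gene were deposited by the authors for DP and for CD4 thymocytes in a table each, with 49997 genes. The cell type labels and titles read DP and CD4. The description of each CD4 library names a table column ending in DP, while the header of the CD4 table ends its columns in CD4, and columns were matched by title. Per the labels' protocols poly(A) RNA was sequenced with paired reads. The submitters' processing notes name the mm10 build, Subread 1.0.1, DESeq2 and R 4.1.5; how reads were aligned, whether strand was used and how multi-mapping reads were handled is not given in the sources used.

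The deposited counts were tested with edgeR 4.0.16 in R 4.3.3 (quasi-likelihood test, TMM, filterByExpr, Benjamini-Hochberg over all genes tested, threshold 0.05), genotype within each stage, stage within each genotype and their interaction over 12 libraries. SE was computed as the size of the log2 fold change over the root of its F statistic. DESeq2 1.42.0, no filter, a batch block and leaving out libraries were alternatives. The batch label equals the replicate number, so a block on it matches libraries by number. Whether libraries of the same number share mice is not stated. Xist was at 0.845 and 0.273 CPM in WT DP replicates 1 and 2 and at 335 and 284 CPM in WT CD4 replicates 1 and 2. These WT libraries of the same number therefore differed in sex-linked RNA and cannot be taken as matched pairs. The correlations of deviations from group means between libraries of the same number ran from 0.0164 to 0.315. The members and lists were chosen with earlier results of these data known. The 10 genes were all named. Other genes were named as the 3 smallest adjusted p per list and comparison, as direct neighbours, or by likeness (prior count 2). Marker genes were also named, and Tnfrsf14 and Cdcp1 were named after their values were seen. The scripts were tested on simulated data. Figures were drawn with matplotlib 3.10.9.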

Additional observations from a re-analysis of the deposited data

Results flagged for a closer look

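The effect of Satb1 KO differed between CD4 and DP cells for 3 of the 10 genes in the test of the difference itself (edgeR's quasi-likelihood test, interaction over 12 libraries, Benjamini-Hochberg adjusted), a share near the 27.8% of all 18431 genes tested that were called. For Lag3 the KO effect in CD4 cells minus that in DP cells was 3.09 on the log2 scale (adjusted p = 1.17e-06). For Tigit it was 0.90 (adjusted p = 0.00271), with a count that is uncertain because of exon bases shared with Zbtb20. For Btla it was -1.48 (adjusted p = 0.00968), which was -1.15 (adjusted p = 0.129) with replicate 3 as the only WT DP library. The cause of these differences was not tested.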

How the results depend on the processing

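Of 630 values of the 10 genes under alternatives, 595 kept direction and call, 9 lost the call, 11 gained one and 15 changed sign. With replicate 3 as the only WT DP library, where that library is assumed to vary like the other groups, 4 of the 10 were called in DP cells (1 higher, 3 lower), and over all genes 1907 were called in DP and 3341 for the difference between stages. With the batch number as a block, 5 of the 10 were called for that difference, and 6420 genes were called for CD4 against DP in KO cells, against 3671 without it. The block changed no other call of the 10 genes. Leaving out 1 library gave 2212 to 3951 for that comparison.

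Sign changes were as follows. Lag3 in DP cells was 0.33 with replicate 3 as the only WT DP library. Ctla4 in CD4 cells ran from -0.43 to 0.68 when 1 library was left out. The difference between stages of Cd5 was -0.028 without a filter and ran from -0.17 to 0.16 with 1 library left out, and that of Havcr2 was 0.50 with the single WT DP library and ran from -0.40 to 0.28. Without a filter, Ctla4 in CD4 cells was 0.32 (adjusted p = 0.0105). The causes were not tested. Depth limits mainly Havcr2 in WT DP cells.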
